A study of Mus musculus with 14 samples.

Results

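The genes described here encode the enzymes that break glucose down to pyruvate and lactate, feed pyruvate into the mitochondrion, divert glucose 6-phosphate into the pentose phosphate pathway, and store or release glucose as glycogen. They were taken from a list of 39 gene symbols, of which 36 had at least 1 probe set annotated to that symbol alone on the array (75 probe sets in all). All 36 passed the filter on low signals, out of 13660 genes that did so among 18194 genes on the array. Gpi1, Eno1 and G6pdx were not analysed here because no probe set was annotated to those symbols alone. RNA came from whole mouse corneas, with both corneas of a mouse pooled, and was hybridized to 14 Affymetrix 3′ expression arrays, 1 per mouse. The Klf5CN mice carried Klf5 loxP/loxP with Le-Cre, and the mice called WT were Klf5 loxP/loxP littermates without Cre, all on a mixed background, so that both groups carried the loxP alleles and only the Klf5CN mice carried Cre. There were 4 Klf5CN and 4 WT mice at postnatal day 56 (PN56), when the mice are young adults, and 3 Klf5CN and 3 WT mice at postnatal day 11 (PN11), before the eyelids open. Le-Cre is active in the surface ectoderm and the eye tissues that descend from it, such as the corneal epithelium, so that stromal keratocytes, corneal endothelium and infiltrating cells of the same sample kept Klf5, which encodes a Krüppel-like zinc finger transcription factor. The comparisons ask how each enzyme gene differed in Klf5CN corneas at each age, and how it differed between PN56 and PN11 corneas of each genotype.

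The cornea has no blood vessels and takes up glucose mainly from the aqueous humour. Its epithelium keeps glycogen stores, which are drawn on when glucose or oxygen runs short, and turns much of its glucose into lactate. Hexokinases trap glucose in the cell, phosphofructokinase commits it to glycolysis, and the Pfkfb enzymes make and remove fructose 2,6-bisphosphate, the strongest activator of phosphofructokinase. Pyruvate dehydrogenase kinases switch off the entry of pyruvate into the mitochondrion, and glycogen phosphorylases release glucose units from glycogen. Many of these genes, among them Hk2, Pfkfb4, Pgk1 and Ldha, are known targets of hypoxia-inducible factors.

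Signals are given as log2 of the deposited signal, with signals under 10 set to 10 (a log2 signal of 3.32). Each gene was read from its brightest probe set. A gene is said to be higher or lower only where limma, fitted to all 14 arrays and all 29416 probe sets that passed the filter, gave an adjusted p below 0.05 (Benjamini-Hochberg over those probe sets). Levels of different genes cannot be compared on these arrays. Klf5 itself, on the probe set that separated the genotypes most, had log2 signals of 3.32 to 6.14 in PN56 Klf5CN corneas against 9.91 to 10.56 in PN56 WT corneas, and of 3.67 to 4.19 in PN11 Klf5CN corneas against 8.91 to 9.21 in PN11 WT corneas. Another of its 3 probe sets separated the genotypes little, with 8.69 to 9.59 in PN56 Klf5CN against 9.22 to 9.76 in PN56 WT corneas and 7.06 to 7.8 in PN11 Klf5CN against 8.07 to 8.51 in PN11 WT corneas. RNA quality differed most on 2 arrays: the ratio of 3′ to 5′ signal of Actb was 2.63 on the array of PN56 Klf5CN replicate 4 and 3.07 on that of PN11 Klf5CN replicate 3, against 1.17 to 1.39 on the other 12. The log2 ratio of Gapdh was higher on every PN56 Klf5CN array than on every PN56 WT array (exact permutation test, two-sided p = 0.0286, the smallest 4 against 4 mice allow), while that of Actb overlapped at PN56 (exact p = 0.1143). At PN11 both ratios were higher on every Klf5CN than on every WT array (exact p = 0.1, the smallest 3 against 3 allow). Between ages, the log2 ratio of Actb was higher on every PN56 WT array (0.39 to 0.45) than on every PN11 WT array (0.23 to 0.27). The exact p was 0.0286, the smallest possible there. That of Gapdh averaged -0.465 in WT corneas at both ages. In Klf5CN corneas the exact p between ages was 0.7714 for Actb and 0.4571 for Gapdh. Their part in the differences given below was not tested beyond leaving out those 2 arrays and fitting the Actb ratio as a covariate. The 10 leukocyte markers had a summed signal of 2050 to 6650 in PN56 Klf5CN corneas against 727 to 1310 in PN56 WT corneas, and of 6320 to 9590 in PN11 Klf5CN corneas against 2110 to 2770 in PN11 WT corneas. Of these 10 markers 9 were higher at PN56 and 8 at PN11, with none at the floor on all arrays. The 8 corneal epithelial markers had summed signals of 39200 to 63200 in PN56 Klf5CN corneas against 36200 to 43100 in PN56 WT corneas, and of 32800 to 39400 in PN11 Klf5CN corneas against 36000 to 43000 in PN11 WT corneas. At PN56, 4 of the 5 corneal endothelial markers were lower in Klf5CN corneas, with summed signals of 3330 to 4490 against 5630 to 7290 in WT corneas, and 4 of the 8 keratocyte markers were higher, with summed signals of 6330 to 31700 in Klf5CN against 6430 to 10200 in WT corneas. At PN11 none of either list passed the test. In whole corneas, a lower share of a cell type and less RNA per cell cannot be told apart, and the part of these cell types in the differences given below was not tested.

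At PN56, 6 of the 36 genes were higher in Klf5CN than in WT corneas (Hk2, Pfkl, Eno2, Pfkfb3, Pfkfb4 and Gys1) and 1 was lower (Pygl), a share of 16.7% higher and 2.78% lower, where 11.8% of all genes tested were higher and 7.69% lower (19.5% either way). At PN11, 2 genes were higher (Hk1 and Pfkp) and 1 was lower (Pfkm), or 5.56% and 2.78%, where 5.05% of all genes tested were higher and 3.48% lower (8.53% either way). The shares of called genes were thus near those of all genes, and no excess of called genes is claimed. Beyond 2-fold, 4 genes were higher and 1 was lower at PN56, against 7.10% and 1.63% of all genes (8.73% either way), and 1 was higher and none lower at PN11, against 3.80% and 1.48% of all genes (5.28% either way). Gys1 was not called Present on any array, and without it 5 genes were higher at PN56. The call of 3 of the 10 rested on thin margins (Hk1 at PN11, Pfkl and Eno2 at PN56), as given with each gene below.

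**Figure D1:**
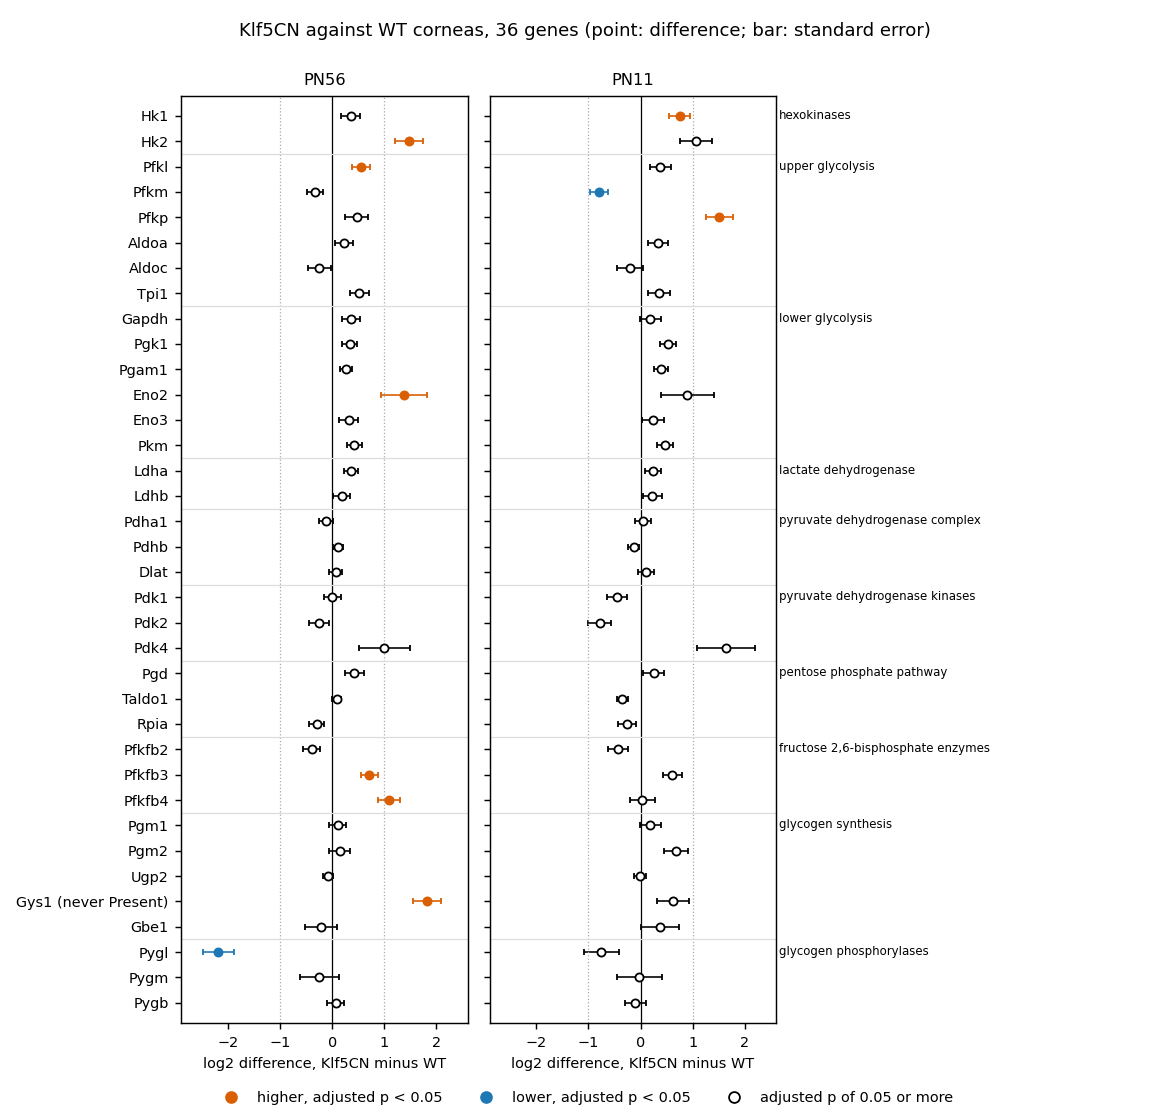
Difference of mean log2 signal between Klf5CN and WT corneas (horizontal axis, log2) for the 36 genes, grouped by role, at PN56 (left, 4 against 4 mice) and PN11 (right, 3 against 3 mice), with bars giving the standard error and dotted lines a 2-fold difference. Orange points were higher and blue points lower at an adjusted p below 0.05. Pygl at -2.19 stands apart at PN56. Hk2 at 1.48, with Eno2 at 1.37 beside it, lies farthest right there but for Gys1, which was never called Present. Most points of the glycolysis genes lie right of 0 without passing the test.

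Most of the other genes of glycolysis lay slightly above 0 at both ages. Over the 36 genes the median log2 difference between Klf5CN and WT corneas was 0.20 at PN56 and 0.23 at PN11, where the medians over all genes tested were 0.02 and 0.00. At PN56, 25 of the 36 differences were above 0 (69.4%, against 51.4% of all genes), and at PN11 24 were (66.7%, against 49.6%). The sign was the same at both ages for 31 of the 36 genes (86.1%), 22 of them above 0 and 9 below it, against 67.8% of all genes, in comparisons that share no array. How far these differences lay from 0 depends on how arrays are scaled. The median of the 36 genes stayed above that of all genes with array medians subtracted and with quantile normalization, at both ages. With each array's median subtracted, the median over all genes at PN56 moved to -0.21 and that of the 36 genes to -0.02, with 4 genes higher and 3 lower. At PN11 the same scaling gave -0.10 for all genes and 0.14 for the 36, with 1 gene higher and 1 lower, whereas quantile normalization gave 4 higher and 1 lower.

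Promoter sequences are shown for the 5 genes that passed the test beyond 2-fold between Klf5CN and WT corneas at either age, Gys1 being left out because it was never called Present, since these are the called differences of that size. Each runs from 250 bases before to 50 after the annotated start, 5′ to 3′ on the strand of the gene, from RefSeq on GRCm38.p6. Capitals mark ACGTG, the core of the site that hypoxia-inducible factors bind, CACCC, a box that Krüppel-like factors bind, and GGGCGG, the GC box, on either strand, so that the reverse complement of each is also in capitals.
Hk2, chr6:82774405-82774704, minus strand: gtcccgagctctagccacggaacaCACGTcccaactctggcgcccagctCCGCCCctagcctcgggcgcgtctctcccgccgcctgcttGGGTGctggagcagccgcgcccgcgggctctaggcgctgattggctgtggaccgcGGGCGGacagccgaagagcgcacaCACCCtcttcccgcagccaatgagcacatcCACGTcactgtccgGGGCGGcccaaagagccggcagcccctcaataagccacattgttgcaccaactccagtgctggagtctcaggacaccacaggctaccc
Pfkp, chr13:6648722-6649021, minus strand: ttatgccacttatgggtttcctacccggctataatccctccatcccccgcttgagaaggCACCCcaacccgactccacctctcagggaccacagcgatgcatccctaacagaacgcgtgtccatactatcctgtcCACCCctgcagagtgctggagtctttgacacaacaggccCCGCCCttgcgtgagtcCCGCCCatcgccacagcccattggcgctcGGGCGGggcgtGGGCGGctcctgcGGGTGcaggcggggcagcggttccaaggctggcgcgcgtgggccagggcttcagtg
Eno2, chr6:124769624-124769923, minus strand: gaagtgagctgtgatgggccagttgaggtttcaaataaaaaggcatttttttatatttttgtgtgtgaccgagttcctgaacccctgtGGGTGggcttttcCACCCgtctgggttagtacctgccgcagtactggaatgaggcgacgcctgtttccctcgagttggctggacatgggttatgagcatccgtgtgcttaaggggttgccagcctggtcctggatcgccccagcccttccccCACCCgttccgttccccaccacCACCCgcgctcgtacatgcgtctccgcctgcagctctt
Pfkfb4, chr9:108991652-108991951, plus strand: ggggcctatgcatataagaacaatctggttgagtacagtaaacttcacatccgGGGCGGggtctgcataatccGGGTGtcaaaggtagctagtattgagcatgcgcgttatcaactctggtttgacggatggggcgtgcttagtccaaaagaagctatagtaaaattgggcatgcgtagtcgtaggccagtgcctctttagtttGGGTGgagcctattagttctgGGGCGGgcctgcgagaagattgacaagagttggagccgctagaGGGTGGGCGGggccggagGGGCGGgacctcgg
Pygl, chr12:70227634-70227933, minus strand: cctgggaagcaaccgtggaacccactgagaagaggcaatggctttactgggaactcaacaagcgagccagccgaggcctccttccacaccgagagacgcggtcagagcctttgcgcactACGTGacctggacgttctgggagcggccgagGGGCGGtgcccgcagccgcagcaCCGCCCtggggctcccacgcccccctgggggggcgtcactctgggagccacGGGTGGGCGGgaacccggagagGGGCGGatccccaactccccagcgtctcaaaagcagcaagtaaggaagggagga
Hk2 held 2 matches to ACGTG, 2 to CACCC and 3 to GGGCGG, and Pygl held 1, 1 and 4 with 1 overlap between motifs. Pfkp held no match to ACGTG, 3 to CACCC and 4 to GGGCGG, and Pfkfb4 held none, 3 and 4, also with 1 overlap. Eno2 held 4 matches to CACCC alone. Of all 32851 promoters in that annotation, 19.6% held ACGTG, 57.5% CACCC and 35.7% GGGCGG at least once, against 43.9%, 66.7% and 56.1% of the 57 promoters of the 39 listed genes. Some of the 57 are overlapping windows of the same gene, so that a site can be counted more than once. By gene, 21, 29 and 28 of the 39 held the motif in a promoter, and the difference from all promoters was not tested. A match is a string of letters in this window and not a measured binding site.

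Of the 2 hexokinase genes, Hk2 was higher in Klf5CN corneas at PN56 and Hk1 at PN11. Hk2 encodes the inducible hexokinase that binds mitochondria. On the 4 PN56 Klf5CN arrays it had log2 signals of 9.74, 9.96, 9.07 and 9.77, against 7.61, 7.85, 8.63 and 8.53 on the PN56 WT arrays. Every PN56 Klf5CN array was above every PN56 WT array, a log2 difference of 1.48 ± 0.27 (SE), or 2.79-fold (adjusted p = 0.0022). At PN11 the log2 signals of Hk2 were 7.78, 7.98 and 8.86 in Klf5CN against 7.1, 6.97 and 7.33 in WT corneas. The groups did not overlap there either, but the log2 difference of 1.07 ± 0.31 had an adjusted p of 0.057.

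Hk1, the housekeeping hexokinase, had log2 signals of 8.7, 8.8 and 8.99 in PN11 Klf5CN corneas against 7.84, 8.26 and 8.15 in PN11 WT corneas. The groups did not overlap, and the log2 difference was 0.75 ± 0.20 (1.68-fold, adjusted p = 0.042). The call was lost when any of the 6 PN11 arrays, PN56 WT replicates 2 or 3 or PN56 Klf5CN replicate 1 was left out, where the log2 difference ran from 0.63 to 0.84 and the adjusted p reached 0.19. Averaging all probe sets of Hk1 gave 0.18 (adjusted p = 0.76). At PN56 Hk1 had log2 signals of 8.5, 8.69, 8.16 and 8.79 in Klf5CN against 7.87, 8.16, 8.05 and 8.65 in WT corneas, groups that overlapped (log2 difference 0.35 ± 0.18, adjusted p = 0.20).

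**Figure D2:**
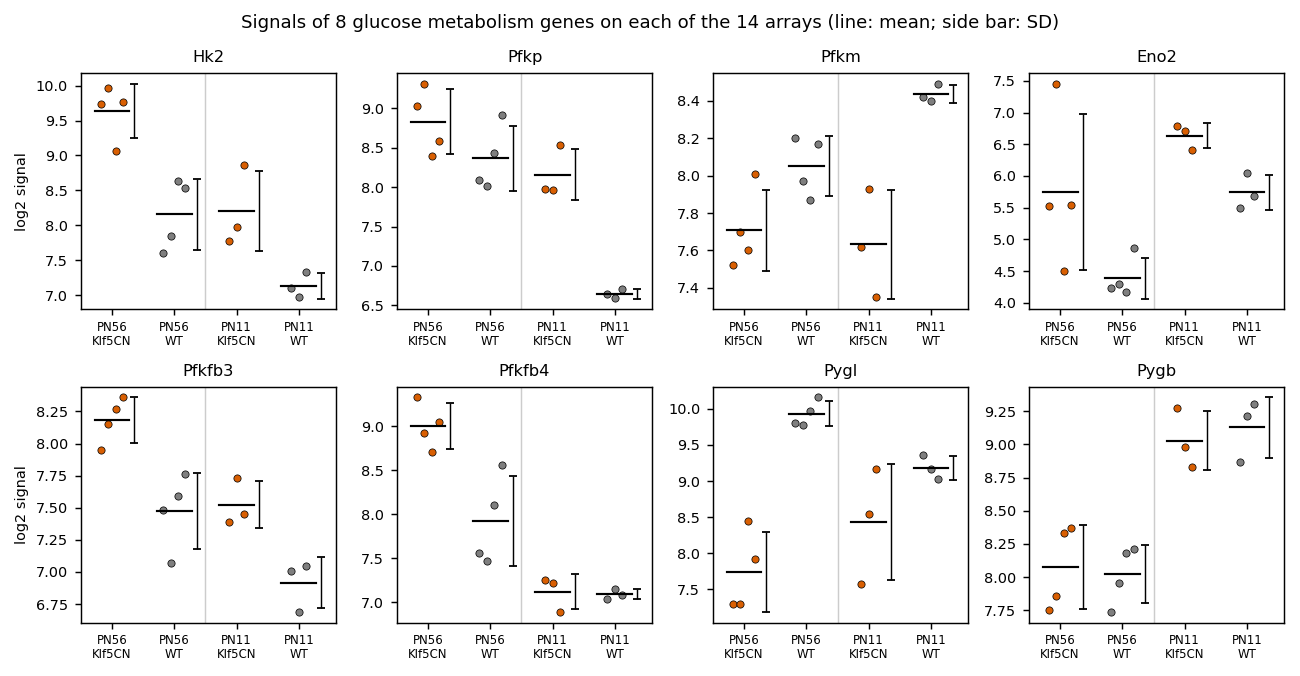
Log2 signal (vertical axis) of 8 genes on each of the 14 arrays, in PN56 Klf5CN, PN56 WT, PN11 Klf5CN and PN11 WT corneas. Points are mice, horizontal lines are means and side bars are SD. Each panel has its own axis, which does not start at 0. Hk2, Pfkfb3, Pfkfb4 and Pygl are separated without overlap at PN56, Pfkp and Pfkm at PN11, and Pygb differs by age in both genotypes. At PN11 Hk2, Pfkfb3 and Eno2 do not overlap between genotypes either, without passing the test.

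The phosphofructokinase genes moved in different directions. Pfkp encodes the platelet type subunit. Its log2 signals were 7.98, 7.97 and 8.53 in PN11 Klf5CN corneas against 6.64, 6.59 and 6.71 in PN11 WT corneas, with no overlap. This was the largest called difference among the 36 genes at PN11 (1.51 ± 0.26, 2.85-fold, adjusted p = 0.0036). At PN56 the log2 signals of Pfkp were 9.03, 9.31, 8.4 and 8.59 in Klf5CN against 8.09, 8.02, 8.43 and 8.92 in WT corneas, which overlapped (0.47 ± 0.22, adjusted p = 0.18). The PN11 call was lost when the 3 probe sets of Pfkp were averaged (0.65, adjusted p = 0.15).

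Pfkm, the muscle type subunit, was lower in Klf5CN corneas at PN11, with log2 signals of 7.62, 7.93 and 7.35 against 8.42, 8.4 and 8.49 in WT corneas. The groups did not overlap (-0.80 ± 0.17, 1.74-fold lower, adjusted p = 0.011), and the call held without any of the 14 arrays. At PN56 the log2 signals were 7.52, 7.7, 7.6 and 8.01 in Klf5CN against 8.2, 7.97, 7.87 and 8.17 in WT corneas, with an overlap of 1 Klf5CN array (-0.34 ± 0.15, adjusted p = 0.13). The summed signal of the 8 skeletal muscle markers tested was 304 to 1000 in PN11 Klf5CN against 254 to 294 in PN11 WT corneas. Of the 8, Myl1 alone passed the test, as higher, and the part of muscle in the difference of Pfkm was not tested.

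Pfkl, the liver type subunit, had log2 signals of 9.96, 10.07, 9.63 and 10.39 in PN56 Klf5CN corneas against 9.27, 9.21, 9.48 and 9.89 in PN56 WT corneas. The groups overlapped, and the log2 difference was 0.55 ± 0.17 (1.46-fold, adjusted p = 0.042). The call was lost without PN56 WT replicates 1, 2 or 3, PN56 Klf5CN replicates 1, 2 or 4, any of the PN11 WT arrays or PN11 Klf5CN replicate 1, where the log2 difference ran from 0.42 to 0.69 and the adjusted p reached 0.13. It was also lost with array medians subtracted (0.32, adjusted p = 0.23). The mean of all its probe sets gave 0.66 ± 0.12 (adjusted p = 0.0019), a dim one given below differing most. At PN11 the log2 difference of Pfkl was 0.38 ± 0.20 (adjusted p = 0.30).

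The remaining genes of upper glycolysis did not pass the test in either comparison. Aldoa and Aldoc encode aldolases and Tpi1 encodes triose phosphate isomerase. Their log2 differences between Klf5CN and WT corneas were 0.22, -0.25 and 0.52 at PN56 and 0.33, -0.20 and 0.35 at PN11. Tpi1 came closest, at an adjusted p of 0.066 at PN56, with log2 signals of 11.98, 11.83, 11.65 and 12.33 in Klf5CN against 11.05, 11.18, 11.67 and 11.83 in WT corneas.

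In lower glycolysis all 6 genes measured had differences above 0 at both ages, from 0.26 to 1.37 at PN56 and from 0.19 to 0.90 at PN11, but only Eno2 at PN56 passed the test. These genes encode glyceraldehyde 3-phosphate dehydrogenase (Gapdh), phosphoglycerate kinase (Pgk1), phosphoglycerate mutase (Pgam1), 2 enolases (Eno2, Eno3) and pyruvate kinase (Pkm). Pkm had log2 signals of 11.39, 11.24, 11.38 and 11.56 in PN56 Klf5CN corneas against 10.71, 10.7, 11.16 and 11.3 in PN56 WT corneas. The groups overlapped at 1 array (0.42 ± 0.14, adjusted p = 0.056). At PN11 Pkm, Pgk1 and Pgam1 were above all WT arrays on all 3 Klf5CN arrays, with log2 differences of 0.47, 0.53 and 0.39 and adjusted p-values of 0.11, 0.061 and 0.097. With array medians subtracted the median of all genes at PN56 was -0.21, a shift close in size to the smallest of these differences.

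Eno2 encodes the enolase typical of neurons. Its log2 signals were 5.52, 7.45, 4.5 and 5.54 in PN56 Klf5CN corneas against 4.23, 4.29, 4.17 and 4.86 in PN56 WT corneas. The spread was wide in Klf5CN corneas, replicate 2 standing highest, and replicate 3 lay within the WT range. The log2 difference was 1.37 ± 0.44 (2.58-fold, adjusted p = 0.048). The call was lost on leaving out any array other than PN56 Klf5CN replicate 3 and PN11 Klf5CN replicate 3, where the log2 difference ran from 0.80 to 1.78 and the adjusted p reached 0.11. It was also lost with the replicate number as a block (adjusted p = 0.054). At PN11 Eno2 had 6.78, 6.71 and 6.41 in Klf5CN against 5.49, 6.04 and 5.69 in WT corneas, which did not overlap (0.90 ± 0.51, adjusted p = 0.35). Of the 5 retina markers tested, 3 were higher in PN56 Klf5CN corneas, their summed signal being 248 to 2260 against 49.5 to 202 in PN56 WT corneas, and their part in the difference of Eno2 was not tested.

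Gapdh is represented by 3 control probe sets along its transcript, whose signals depend on the position read. The 3′ probe set, from which Gapdh was read, had log2 signals of 12.24, 12.1 and 12.25 in PN11 Klf5CN corneas against 12.13, 11.88 and 12.01 in PN11 WT corneas. The 5′ probe set had 12.55, 12.49 and 6.07 in PN11 Klf5CN against 12.58, 12.31 and 12.52 in PN11 WT corneas, and the middle one had 12.31, 12.18 and 9.13 against 12.26, 12 and 12.22. The low values all came from PN11 Klf5CN replicate 3, the array with the highest 3′ to 5′ ratio of Actb. The log2 difference at PN11 was 0.19 on the 3′ probe set, -0.95 on the middle one and -2.10 on the 5′ one, none past the test.

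**Figure D3:**
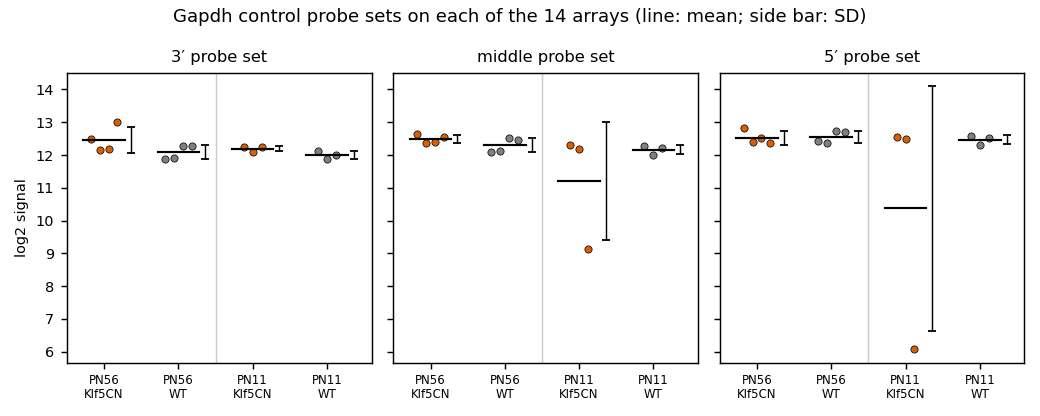
Log2 signal (vertical axis) of the 3′, middle and 5′ control probe sets of Gapdh on each array, in PN56 Klf5CN, PN56 WT, PN11 Klf5CN and PN11 WT corneas. Points are mice, lines are means and side bars are SD, on an axis that does not start at 0. PN11 Klf5CN replicate 3 falls to 9.13 on the middle and 6.07 on the 5′ probe set, while its 3′ signal of 12.25 is like that of the other arrays.

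Without these 2 arrays of high 3′ to 5′ ratio, a choice made after seeing the data, the calls of Pfkp and Pfkm at PN11 (1.32 and -0.66) and of Hk2, Pfkfb3, Pfkfb4 and Pygl at PN56 (1.44, 0.65, 1.06 and -2.25) stood, as did that of Gys1. Those of Hk1 at PN11 (0.67, adjusted p = 0.076) and of Pfkl and Eno2 at PN56 (0.42 and 1.44, adjusted p = 0.092 and 0.065) were lost.

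Lactate dehydrogenase and pyruvate dehydrogenase differed little between genotypes. Ldha and Ldhb encode the subunits that interconvert pyruvate and lactate, and Pdha1, Pdhb and Dlat encode subunits of the pyruvate dehydrogenase complex. Ldha had log2 signals of 12.31, 12.04, 11.95 and 12.29 in PN56 Klf5CN corneas against 11.54, 11.64, 11.95 and 12.03 in PN56 WT corneas, an overlapping difference of 0.36 ± 0.14 (adjusted p = 0.092). The log2 difference of Ldhb was 0.18 at PN56 and 0.23 at PN11, and that of Ldha at PN11 was 0.24. For Pdha1, Pdhb and Dlat the differences were -0.12, 0.11 and 0.06 at PN56 and 0.05, -0.13 and 0.11 at PN11, with overlapping groups throughout.

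The 3 pyruvate dehydrogenase kinase genes did not pass the test between genotypes, though some differences were large. Pdk4, the kinase induced by fasting, had log2 signals of 4.88, 5.44, 3.32 and 4.35 in PN56 Klf5CN corneas against 3.47, 3.32, 3.67 and 3.55 in PN56 WT corneas. At PN11 it had 7.24, 7.09 and 5.65 in Klf5CN against 5.24, 5.95 and 3.88 in WT corneas. Both pairs of groups overlapped, with log2 differences of 1.0 ± 0.49 and 1.64 ± 0.56 (adjusted p = 0.19 and 0.11). Pdk2 had log2 signals of 6.97, 7.48 and 7.16 in PN11 Klf5CN corneas against 8.12, 7.95 and 7.88 in PN11 WT corneas. The groups did not overlap and the difference of -0.78 ± 0.22 just missed the threshold (adjusted p = 0.051). At PN56 Pdk2 had 6.82, 6.74, 7.08 and 7.45 in Klf5CN against 7.54, 6.92, 7.06 and 7.57 in WT corneas, which overlapped (-0.25). Pdk1 differed by 0.00 at PN56 and by -0.45 at PN11 (adjusted p = 0.19), where the groups did not overlap.

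The pentose phosphate pathway genes measured, Pgd (6-phosphogluconate dehydrogenase), Taldo1 (transaldolase) and Rpia (ribose 5-phosphate isomerase), did not pass the test between genotypes. Their log2 differences were 0.42, 0.08 and -0.30 at PN56 and 0.25, -0.35 and -0.26 at PN11. Taldo1 at PN11 came closest, with log2 signals of 10.71, 10.55 and 10.63 in Klf5CN against 11.15, 10.98 and 10.83 in WT corneas, which did not overlap (adjusted p = 0.070).

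The 2 Pfkfb genes that passed the test rose in PN56 Klf5CN corneas. Pfkfb3 and Pfkfb4 encode the inducible enzymes that set the level of the phosphofructokinase activator. Pfkfb4 had log2 signals of 9.33, 8.92, 8.71 and 9.05 in PN56 Klf5CN corneas against 7.56, 7.47, 8.11 and 8.56 in PN56 WT corneas. The groups did not overlap (1.08 ± 0.21, adjusted p = 0.0033), and the call held without any of the 14 arrays. At PN11 Pfkfb4 had 7.25, 7.22 and 6.89 in Klf5CN against 7.04, 7.15 and 7.08 in WT corneas, where both groups lay in the same range (0.03 ± 0.24).

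Pfkfb3 had log2 signals of 7.95, 8.15, 8.27 and 8.36 in PN56 Klf5CN corneas against 7.48, 7.07, 7.59 and 7.76 in PN56 WT corneas. Again the groups did not overlap (0.71 ± 0.16, adjusted p = 0.0080), but with array medians subtracted the difference was 0.48 and no longer passed (adjusted p = 0.090), and the mean of its probe sets gave 0.24 (adjusted p = 0.24). At PN11 the log2 signals were 7.39, 7.73 and 7.45 in Klf5CN against 7.01, 6.69 and 7.05 in WT corneas, a difference of similar size without overlap (0.61 ± 0.18, adjusted p = 0.068). Pfkfb2, the heart type enzyme, differed by -0.40 at PN56 and by -0.43 at PN11 and did not pass on the probe set read (adjusted p = 0.11 and 0.21).

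The glycogen genes held the largest difference between genotypes among the 36. Pygl encodes the liver type glycogen phosphorylase, and its log2 signals were 7.3, 7.3, 8.44 and 7.92 in PN56 Klf5CN corneas against 9.81, 9.78, 9.97 and 10.16 in PN56 WT corneas. The lowest WT array was above the highest Klf5CN array by more than the range of the WT arrays, and the log2 difference was -2.19 ± 0.30 (adjusted p = 0.00028). Leaving out each array in turn gave -2.42 to -2.04, with the call kept each time. At PN11 Pygl had 7.57, 8.55 and 9.17 in Klf5CN against 9.36, 9.16 and 9.03 in WT corneas. There replicate 3 of Klf5CN lay within the WT range, and the difference of -0.75 ± 0.34 did not pass (adjusted p = 0.23).

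The other 2 phosphorylase genes did not follow Pygl. Pygb, the brain type, had log2 signals of 7.75, 7.86, 8.33 and 8.37 in PN56 Klf5CN corneas against 7.74, 7.96, 8.18 and 8.21 in PN56 WT corneas, and 9.27, 8.98 and 8.83 in PN11 Klf5CN against 8.87, 9.21 and 9.3 in PN11 WT corneas. The groups overlapped at both ages, with log2 differences of 0.06 ± 0.17 and -0.10 ± 0.20. Pygm, the muscle type, was called Present on few arrays and differed by -0.25 ± 0.38 at PN56 and -0.02 ± 0.44 at PN11.

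Of the genes for glycogen synthesis, Gys1, which encodes muscle type glycogen synthase, passed the test at PN56, but with no array called Present. Its log2 signals were 5.65, 4.71, 4.53 and 5.66 in PN56 Klf5CN corneas against the floor of 3.32 on all 4 PN56 WT arrays, and 6.38, 6.56 and 5.71 in PN11 Klf5CN against 5.74, 5.48 and 5.55 in PN11 WT corneas. Because the probe set was not called Present in either group, no fold difference is given. Its other probe set did not pass (0.43, adjusted p = 0.45). Pgm1 and Pgm2, which encode phosphoglucomutases, Ugp2, which makes UDP-glucose, and Gbe1, the branching enzyme, differed by 0.10, 0.14, -0.08 and -0.22 at PN56 and by 0.19, 0.69, -0.01 and 0.37 at PN11. Pgm2 at PN11 was the only gene of these whose groups did not overlap, with log2 signals of 7.69, 7.47 and 8.01 in Klf5CN against 7.41, 6.69 and 7 in WT corneas (adjusted p = 0.096).

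Between PN56 and PN11, on the probe set read, Hk2, Pfkp, Aldoc, Pfkfb3 and Pfkfb4 rose in both genotypes, and Pdk4, Pygb and Eno3 fell in both. In Klf5CN corneas 8 of the 36 genes were higher at PN56 than at PN11 and 4 were lower (22.2% and 11.1%), where 15.1% of all genes tested were higher and 25.2% lower (40.3% either way). In WT corneas 9 were higher and 6 lower (25.0% and 16.7%), where 15.2% of all genes were higher and 27.4% lower (42.6% either way). Beyond 2-fold, 2 genes were higher and 2 lower in Klf5CN corneas, against 4.80% and 13.4% of all genes (18.2% either way), and 2 higher and 4 lower in WT corneas, against 4.37% and 15.6% (20% either way). The median log2 difference over the 36 genes was 0.18 in Klf5CN and 0.17 in WT corneas, where the medians over all genes were -0.07 and -0.11. With array medians subtracted the Klf5CN count was 4 higher and 4 lower. These comparisons share arrays with those between genotypes, so they are set side by side and not counted as separate evidence.

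**Figure D4:**
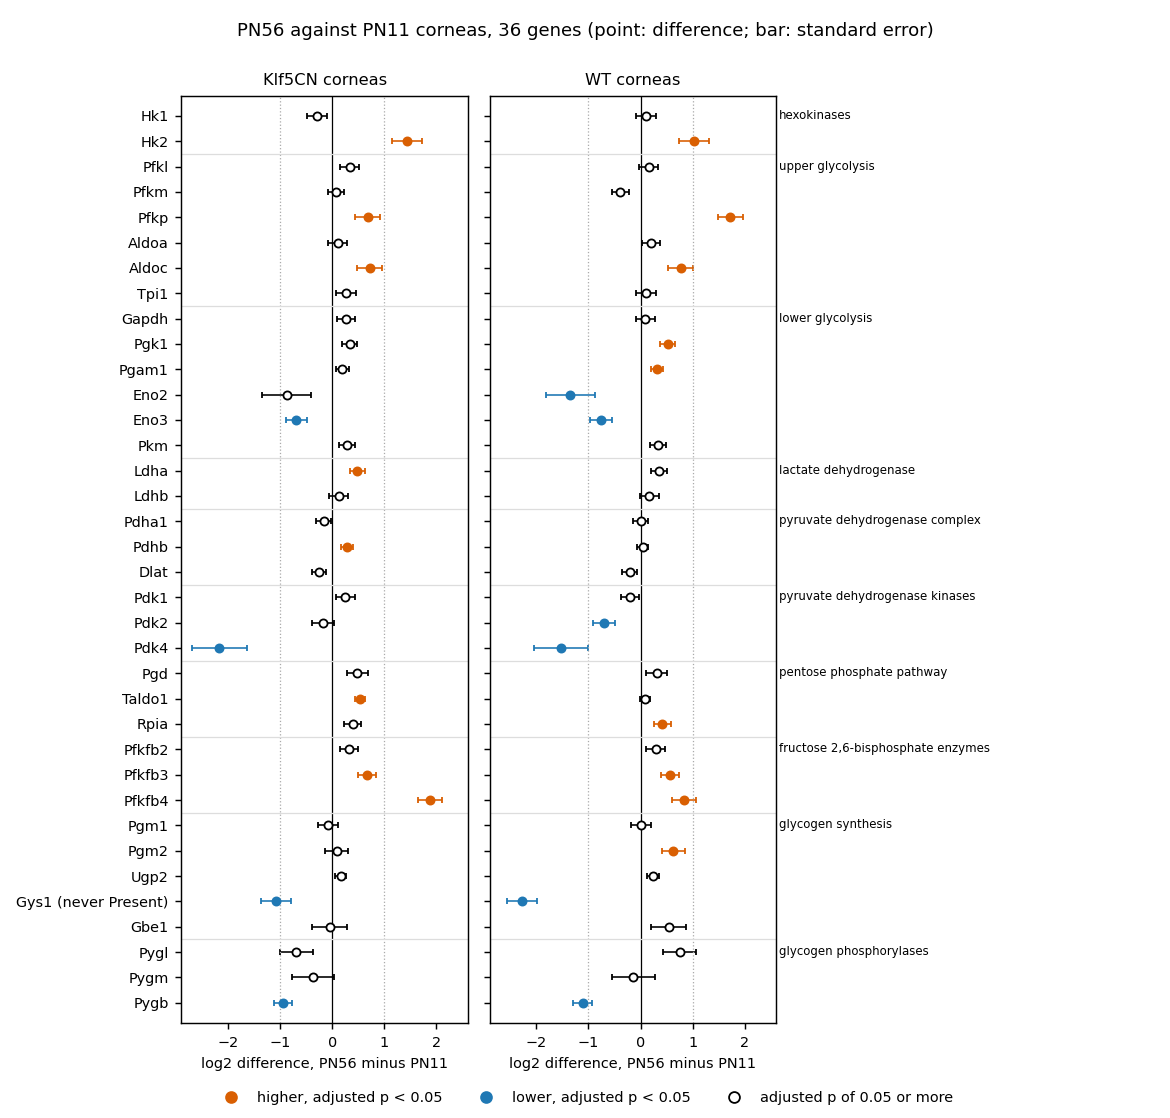
Difference of mean log2 signal between PN56 and PN11 corneas (horizontal axis, log2) for the 36 genes in Klf5CN (left) and WT corneas (right), 4 PN56 against 3 PN11 mice in each, with bars giving the standard error and dotted lines a 2-fold difference. Orange points were higher and blue points lower at PN56 at an adjusted p below 0.05. Pfkfb4 at 1.88 and Hk2 at 1.43 lie farthest right in Klf5CN corneas, and Pfkp at 1.72 in WT corneas.

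The RNA quality ratio of Actb differed with age in WT corneas, as given above. Signals of cell type markers differed with age too, where a lower share of a cell type and less RNA per cell cannot be told apart. Of the 8 keratocyte markers 7 were lower at PN56 in Klf5CN corneas and 8 in WT corneas. Their summed signal was 6330 to 31700 in PN56 Klf5CN and 6430 to 10200 in PN56 WT corneas, against 41500 to 47900 in PN11 Klf5CN and 46100 to 51200 in PN11 WT corneas. Blood vessel markers were also lower at PN56, 7 of 8 in Klf5CN and 8 of 8 in WT corneas. Of the 10 leukocyte markers, 3 were lower and 1 higher at PN56 in Klf5CN corneas, and 7 were lower and 1 higher in WT corneas. The part of these cell types in the age differences of the enzyme genes was not tested.

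Hk2 was higher at PN56 in both genotypes, by 1.43 ± 0.29 in Klf5CN (adjusted p = 0.0014) and by 1.02 ± 0.29 in WT corneas (adjusted p = 0.011), with no overlap between ages in either. Pfkp rose 1.60-fold in Klf5CN corneas (0.68 ± 0.24, adjusted p = 0.037) and 3.29-fold in WT corneas (1.72 ± 0.24, adjusted p = 5.5e-05). The Klf5CN groups overlapped, and their call was lost without PN56 Klf5CN replicates 1 or 2 or PN11 Klf5CN replicates 1 or 2 (0.52 to 0.86, adjusted p up to 0.13). On the brightest probe set, the PN11 Klf5CN level of Pfkp, 7.97 to 8.53, reached into the range of the PN56 WT arrays, 8.02 to 8.92. Its other probe sets, not called Present on any PN11 Klf5CN array, averaged 3.64 and 3.71 there, against 6.91 and 4.29 in PN56 WT corneas.

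Pfkfb4 rose by 1.88 ± 0.23 in Klf5CN corneas (adjusted p = 1.8e-05) and by 0.83 ± 0.23 in WT corneas (adjusted p = 0.0083). Pfkfb3 rose by 0.66 ± 0.17 and 0.56 ± 0.17 (adjusted p = 0.0072 and 0.017). Neither gene's groups overlapped between ages in either genotype. The WT call of Pfkfb3 was lost without PN56 WT replicate 4 or PN11 WT replicate 2 (0.45 to 0.69 over all arrays left out in turn, adjusted p up to 0.089).

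Aldoc, the aldolase typical of brain, had log2 signals of 9.38, 9.82, 9.28 and 9.57 in PN56 Klf5CN corneas against 8.11, 9.05 and 9.21 in PN11 Klf5CN corneas, and 9.58, 9.45, 9.87 and 10.13 in PN56 WT corneas against 9.16, 8.79 and 9.02 in PN11 WT corneas. Ages did not overlap in either genotype, and the differences were 0.72 ± 0.24 and 0.77 ± 0.24 (adjusted p = 0.025 and 0.016). The Klf5CN call was lost without PN56 Klf5CN replicate 2 or PN11 Klf5CN replicate 1 (0.38 to 0.93, adjusted p up to 0.15), and the WT call without PN56 WT replicate 4 or PN11 WT replicate 2 (0.65 to 0.87, adjusted p up to 0.073).

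Smaller age differences passed in a single genotype on the probe set read. In Klf5CN corneas Ldha (0.48), Pdhb (0.28) and Taldo1 (0.53) were higher at PN56, and in WT corneas Pgk1 (0.52), Pgam1 (0.32), Rpia (0.42) and Pgm2 (0.63) were. Whether these age differences themselves differ between genotypes was tested directly, as given below, and none passed. Taldo1 had log2 signals of 11.11, 11.1, 11.29 and 11.13 in PN56 Klf5CN against 10.71, 10.55 and 10.63 in PN11 Klf5CN corneas, which were far apart for their spread (adjusted p = 0.00089). Pgk1 and Taldo1 kept their calls without any of the arrays. The others lost theirs in some cases, over log2 ranges of 0.25 to 0.38 for Pgam1 (9 of 14 arrays), 0.30 to 0.49 for Rpia (6 arrays), 0.46 to 0.82 for Pgm2 (4 arrays), 0.39 to 0.55 for Ldha (PN11 Klf5CN replicate 3) and 0.22 to 0.37 for Pdhb (12 arrays).

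Among the genes that fell, Pdk4 showed the largest age difference of a gene called Present, by the signals given above: -2.17 ± 0.52 in Klf5CN corneas (adjusted p = 0.0044) and -1.52 ± 0.52 in WT corneas (adjusted p = 0.030), with ages apart in both. In PN56 WT corneas it was called Present on 1 of 4 arrays, so that its level there lay near background. The WT call was lost without PN56 WT replicates 1, 2 or 4 or PN11 WT replicates 1 or 2 (-2.10 to -1.06, adjusted p up to 0.16). Pygb was lower at PN56 in both genotypes, by -0.95 ± 0.18 in Klf5CN and -1.11 ± 0.18 in WT corneas (adjusted p = 0.00092 and 0.00023), and kept both calls without any of the arrays.

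Eno3, the muscle type enolase, had log2 signals of 5.56, 6.1, 5.78 and 6.03 in PN56 Klf5CN against 6.25, 7.04 and 6.38 in PN11 Klf5CN corneas, and 5.51, 5.73, 5.57 and 5.41 in PN56 WT against 6.31, 6.27 and 6.38 in PN11 WT corneas. Ages did not overlap, with differences of -0.69 ± 0.21 and -0.76 ± 0.21 (adjusted p = 0.015 and 0.0079). The Klf5CN call was lost without PN11 Klf5CN replicate 2 (-0.84 to -0.45, adjusted p up to 0.11). Eno2 was lower at PN56 in WT corneas (-1.35 ± 0.47, adjusted p = 0.032), a call lost without any of the PN11 WT arrays or PN56 WT replicates 1, 2 or 3 (-1.51 to -1.20, adjusted p up to 0.11). Pdk2 was lower in WT corneas (-0.71 ± 0.21, adjusted p = 0.012), a call lost without PN11 WT replicate 1 (adjusted p = 0.055). Gys1 passed as lower in both genotypes, on the probe set never called Present.

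Whether the Klf5CN effect differed between the ages was tested directly, as the PN56 effect minus the PN11 effect. By limma none of the 36 genes passed, where 0.564% of all genes did. At an unadjusted p below 0.05 there were 5 of 36, where 12.5% of all genes were. These 5 were Pfkp (-1.04 ± 0.34), Taldo1 (0.43 ± 0.14), Pfkfb4 (1.05 ± 0.32), Pygl (-1.44 ± 0.45) and Gys1, which was at the floor on all PN56 WT arrays, with adjusted p-values of 0.22 to 0.30 by limma. A difference of effect between ages is therefore not shown for any of them. The difference of effect was not simulated. For the genotype comparisons, a simulation changed 200 of 29416 probe sets, drawn from the brighter ones. Of those changed 2-fold, 60.0% were recovered at PN11 and 73.5% at PN56, and for 1.5-fold changes the shares were 0.0% and 17.0%. In the data 1165 genes at PN11 and 2657 at PN56 were called. The adjusted threshold is easier to reach where more genes differ, so these shares do not give the power of the real fit.

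Different probe sets of the same gene did not always agree. Of the 19 genes with more than 1 probe set tested, 8 passed on at least 1 probe set at PN56 and none of these passed on all of them, and 4 did so at PN11, again none on all. The matching shares over all genes with more than 1 probe set were not counted, so no excess is read from these counts. Pgk1 passed on a second probe set at both ages (0.74 at PN56, adjusted p = 0.013, and 0.88 at PN11, adjusted p = 0.023), where the brightest did not. Its log2 signals were 11.58, 11.55, 11.32 and 12.12 in PN56 Klf5CN against 10.48, 10.8, 11.24 and 11.1 in PN56 WT corneas, and 10.85, 11.12 and 11.36 in PN11 Klf5CN against 10.23, 10.21 and 10.25 in PN11 WT corneas, without overlap at either age. At PN56 other probe sets passed as higher for Tpi1 (0.56, adjusted p = 0.030) and Pdk1 (0.85, adjusted p = 0.048), and as lower for Pfkfb2 (-0.81, adjusted p = 0.031) and Ugp2 (-0.48, adjusted p = 0.029). At PN11 a different probe set of Pdk1 passed as lower (-0.60, adjusted p = 0.042). A dim probe set of Pfkl passed at PN56 with 5.45, 5.61, 5.94 and 6.02 in Klf5CN against 4.79, 4.25, 4.62 and 4.67 in WT corneas (1.17, adjusted p = 0.00093).

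Between ages in WT corneas the probe sets of Pfkl passed in opposite directions, a brighter probe set at 0.72 (adjusted p = 0.0075) and the dim one at -0.60 (adjusted p = 0.028), so that no direction is given for Pfkl with age. A second probe set of Pfkp had 7.33, 7.31, 6.5 and 5.71 in PN56 Klf5CN against 3.32, 4.26 and 3.32 in PN11 Klf5CN corneas (adjusted p = 1.1e-05), and 6.96, 6.7, 7.17 and 6.82 in PN56 WT corneas against the floor of 3.32 on all 3 PN11 WT arrays (adjusted p = 2.1e-06). Between genotypes it did not pass at either age (-0.20 at PN56 and 0.31 at PN11). A dimmer probe set of Pdha1 had 8.46, 8.53, 8.63 and 8.42 in PN56 WT against 6.71, 6.91 and 6.66 in PN11 WT corneas (1.75, adjusted p = 4.9e-06), where the brightest one differed by 0.00. Dimmer probe sets also passed as higher at PN56 in both genotypes for Pfkfb2, Pgd and Pgk1. Those of Pfkfb2, not called Present on every PN11 array, differed by 1.22, 0.82 and 1.21 in Klf5CN and 1.55, 0.97 and 2.03 in WT corneas. That of Pgd differed by 0.70 and 0.63, and those of Pgk1 by 0.53 and 0.89 in Klf5CN and 0.67 and 0.98 in WT corneas. Whether such probe sets read different transcripts of a gene was not tested. Several of the probe sets read here, those of Aldoa, Tpi1, Dlat, Pgd and Ugp2 among them, are of the type that can also bind transcripts of related genes, and closely similar pseudogenes exist for Gapdh and other glycolysis genes.

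A separate list held 64 other genes of glucose metabolism, of which 48 were tested. In PN56 Klf5CN corneas 9 of the 48 were higher and 7 lower than in WT corneas, where 11.8% and 7.69% of all genes were, with a median log2 difference of 0.02 for the list and for all genes. At PN11 2 were higher and 5 lower, where 5.05% and 3.48% of all genes were. Of 8 glucose and lactate carriers and regulators tested, 3 were higher and 1 lower at PN56. Slc16a3, a lactate exporter, averaged a log2 signal of 6.77 in Klf5CN and 4.63 in WT corneas (2.14, adjusted p = 0.0020), and Slc2a3, a glucose carrier, averaged 6.49 and 4.43 (2.06, adjusted p = 0.0028). Slc16a1, another lactate carrier, was higher by 0.96 (adjusted p = 0.023). Hk3, a hexokinase found in myeloid cells, averaged 5.36 in PN56 Klf5CN corneas against the floor of 3.32 in PN56 WT corneas (adjusted p = 0.00045), and was higher at PN11 by 1.26 (adjusted p = 0.041). H6pd, the dehydrogenase of the pentose phosphate route in the endoplasmic reticulum, was higher at PN56 by 1.51 (adjusted p = 0.00020). Slc2a1, the main glucose carrier of epithelia, differed by 0.58 at PN56 and 0.40 at PN11 and did not pass.

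Genes of a further list, drawn up for glycogen and UDP-sugars, moved both ways in Klf5CN corneas. Of 17 tested, 3 were higher and 3 lower at PN56, against 11.8% and 7.69% of all genes, and 1 was higher and 3 lower at PN11, against 5.05% and 3.48% of all genes. Ppp1r3c, which encodes a subunit that directs protein phosphatase to glycogen, averaged a log2 signal of 9.45 in Klf5CN and 12.01 in WT corneas at PN56 (-2.56, adjusted p = 0.00077) and 9.54 and 11.34 at PN11 (-1.80, adjusted p = 0.032). Gyg, the glycogenin that primes glycogen synthesis, was lower by -0.95 at PN56 and by -0.98 at PN11 (adjusted p = 0.0039 and 0.016). Ppp1r3b, a related targeting subunit, went the other way at PN56 (1.4, adjusted p = 0.00098), as did Pgm2l1 (1.2, adjusted p = 0.0021). Pgm5 was lower at PN11 (-1.82, adjusted p = 0.032) and Stbd1, a glycogen-binding protein, higher there (1.27, adjusted p = 0.0065). Around pyruvate, Mpc1, a subunit of the mitochondrial pyruvate carrier, was lower at PN56 (-0.81, adjusted p = 0.016), as was Pdhx (-0.75, adjusted p = 0.033).

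Hypoxia-regulated genes outside glucose metabolism formed another list of 14 genes, all tested. In PN56 Klf5CN corneas 5 were higher, each beyond 2-fold, and none was lower, where 11.8% of all genes were higher and 7.69% lower, and 7.10% of all genes were higher beyond 2-fold. The median log2 difference was 0.36, against 0.02 over all genes. The largest were Ankrd37 (2.34, adjusted p = 0.0013), Ddit4 (1.78, adjusted p = 0.0028), Adm (1.69, adjusted p = 0.019) and P4ha2 (1.32, adjusted p = 0.0078). At PN11 Ankrd37 (1.73, adjusted p = 0.035) and Ndrg1 (1.2, adjusted p = 0.0085) were higher and none was lower, against 5.05% and 3.48% of all genes. Others on that list, among them Car9 (0.04 at PN56), Bnip3 (0.71, adjusted p = 0.12) and Higd1a (0.32), did not pass. Hif1a differed by 0.02 at PN56 and 0.08 at PN11, and Epas1, which encodes another hypoxia-inducible factor subunit, was lower at both ages (-0.40 and -0.72, adjusted p = 0.022 and 0.0038).

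With age, the wider list of 48 held 6 genes higher and 11 lower at PN56 in Klf5CN corneas, against 15.1% and 25.2% of all genes, and 8 higher and 13 lower in WT corneas, against 15.2% and 27.4% of all genes. Gpd2, the mitochondrial glycerol 3-phosphate dehydrogenase, rose in both genotypes (1.24 in Klf5CN and 1.32 in WT, adjusted p = 4.6e-06 and 1.9e-06), as did Rpe (1.06 and 1.08) of the pentose phosphate pathway. Of the hypoxia-regulated genes, Ddit4 was lower at PN56, by -1.06 in Klf5CN (adjusted p = 0.032) and -2.94 in WT corneas (adjusted p = 1.9e-05), and Ndrg1 rose by 0.76 and 1.86 (adjusted p = 0.015 and 1.4e-05). Hk3 and H6pd, both higher in PN56 Klf5CN corneas, were lower at PN56 than at PN11 in WT corneas (adjusted p = 0.0013 and 1.4e-05).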

How the data were processed

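Corneal RNA of 14 mice was measured on Affymetrix mouse whole-genome 3′ expression arrays. The deposited intensities were made by the authors with GCOS 1.4, which scaled each array to a 2% trimmed mean of 150, and 631414 of 631414 signals were equal in both deposited tables. The authors' columns of pairwise changes were not used. Signals under 10 were set to 10 (29.5% of values) and log2 transformed, and the 29416 of 45101 probe sets with a signal above 20 on at least 3 arrays were tested. Probe sets were named from the platform annotation (34958 with 1 gene symbol, 932 with several and 9211 with none), and each gene was read from its tested 1-symbol probe set of highest mean log2 signal. Groups were taken from the sample labels. limma 3.58.1 in R 4.3.3 (lmFit, then eBayes with trend) was fitted to the 4 groups together, with Benjamini-Hochberg adjustment over all tested probe sets, and every adjusted p in the text comes from it unless another test is named. Exact permutation tests went through every split of the arrays in numpy 2.4.6. Rank tests were made in scipy 1.17.1, and tables in pandas 2.3.3 under Python 3.11.15. The fit was tested on simulated data. Of all calls 57.8% were Present, replicates correlated at 0.939 to 0.985, and the number of arrays limits the precision.

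All 39 listed genes could be named. Those past the test were given per array, up to 10 in each comparison, other lists by up to 4 genes past the test in each comparison, and promoters where a difference between genotypes also passed 2-fold. Slc2a1, Car9, Bnip3, Higd1a and Hif1a fall outside this rule and were named after their values were seen. The genes and lists were chosen with earlier results of these data known. Alternatives covered normalization, floor, filter, probe sets, fit, covariate, replicate block and leaving out arrays.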

Additional observations from a re-analysis of the deposited data

Results flagged for a closer look

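Single arrays stood far from the other 3 of their group in 3 of the 71 groups of 4 tested over the 36 genes. A gap of that size is met by chance in about 1 of 20 such groups. Gbe1 was low in PN56 Klf5CN replicate 4, at a log2 signal of 5.83 where the other 3 had 7.14 to 7.41. Taldo1 was high in PN56 Klf5CN replicate 3, at 11.29 where the others had 11.1 to 11.13. Eno2 was high in PN56 WT replicate 4, at 4.86 where the others had 4.17 to 4.29.

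PN56 Klf5CN replicate 4 also stood apart in RNA quality. Its log2 ratio of 3′ to 5′ signal was 1.4 for Actb, where the other 3 had 0.41 to 0.47, and 0.65 for Gapdh, where the others had -0.34 to -0.24. Its part in the low Gbe1 signal was not tested.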

How the results depend on the processing

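No called difference turned round under any alternative. Over 1004 repeats of the 37 called differences, 819 kept their call and 185 lost it. These include repeats without an array of neither group compared, which can change the standard error and adjusted p but not the log2 difference. Among PN56 Klf5CN against WT corneas, the 6 higher genes became 3 with signals under 32 set to 32, and the 1 lower gene became 3 with array medians subtracted and 2 without the 2 Klf5CN arrays of highest 3′ to 5′ ratio. At PN11 the 2 higher genes became 4 with quantile normalization, and 1 with array medians subtracted, with signals under 32 set to 32, with no filter, with the Actb ratio as covariate and beyond 2-fold. The 1 lower gene at PN11 became 3 with the mean of all probe sets, 0 beyond 2-fold and by the methods' rank test, and 2 with the floor of 32, with log2 of signal plus 16, with no filter, with signals above 64, with robust eBayes, with only the groups compared, with the Actb ratio as covariate and without those 2 arrays. Between ages in Klf5CN corneas, the 8 higher genes became 4 with array medians subtracted and with only the groups compared, and 2 beyond 2-fold and by the rank test, and the 4 lower genes became 2 with signals above 64, with only the groups compared, beyond 2-fold and by the rank test. In WT corneas the 9 higher genes became 2 beyond 2-fold and by the rank test, and the 6 lower became 3 with the floor of 32. Apart from the stricter fold and the smaller sets of genes or arrays, the cause was not tested.

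Leaving out each array in turn gave 4 to 8 higher and 1 to 2 lower genes at PN56, 1 to 4 and 1 to 3 at PN11, 5 to 10 and 3 to 5 between ages in Klf5CN corneas, 4 to 11 and 3 to 7 in WT corneas, and 0 throughout for the difference of effect. The extremes were reached without PN56 WT replicate 1 (4) and PN56 Klf5CN replicate 3 (8) for genes higher at PN56, without PN56 WT replicate 3 (1) and PN56 WT replicate 1 (4) for those higher at PN11, without PN11 Klf5CN replicate 1 (5) for those higher with age in Klf5CN corneas, and without PN56 WT replicate 4 (4) and PN11 WT replicate 1 (3) for those higher and lower with age in WT corneas.

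Replicate numbers did not pair the mice: deviations of same-numbered Klf5CN and WT arrays correlated at -0.195 to 0.093 over 4 pairs at PN56 and at -0.059 to 0.051 over 3 pairs at PN11. With the replicate number as a block, 9 of the 10 calls between genotypes stood and that of Eno2 at PN56 was lost (1.37, adjusted p = 0.054 by limma). The block was not run between ages. Signals above 64 left 32 of the 37 calls to repeat. Of probe sets simulated with a 1.5-fold change, 17.0% were recovered at PN56 and 0.0% at PN11, and of those with a 2-fold change 73.5% and 60.0%. Only 200 of 29416 probe sets were changed, so these shares do not give the power of the real fit.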
